A study of Homo sapiens with 56 samples.

Results

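The anti-apoptotic BCL2 family was taken as the entries of the deposited table whose gene symbol was MCL1, BCL2, BCL2L1, BCL2L2 or BCL2A1. All 5 were found among the 21595 entries with a gene name, and all 5 passed the filter on low values in every comparison. Proteins of this family hold back the intrinsic, mitochondrial route of apoptosis. They bind BH3-only proteins (such as BIM, NOXA and BIK) and the pore-forming effectors BAX and BAK, and a cell dies by this route when the effectors open the outer mitochondrial membrane and let cytochrome c out. B-cell lymphomas often lean on 1 or more of these guardians, and BCL2 and MCL1 are drug targets in mantle cell lymphoma.

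The 56 poly-A RNA-seq libraries came from established lines of mantle cell lymphoma, a cancer of B cells: 13 from Z138, 15 from JEKO-1, 13 from MINO-VR and 15 from MINO-P. The study's title asks whether blocking BIRC5 and MCL-1 could serve against drug resistance. Treatments keep the codes of the labels, and CON (5 libraries) was read as untreated. The single agents were IBR (11 libraries), BTZ (6), CLF (6), S63845 (6) and YM155 (4), where S63845 is an inhibitor that binds the MCL-1 protein and YM155 was designed to lower BIRC5 (survivin). The combinations were IBR_CLF (8), BTZ_CLF (4), BTZ_YM155 (2), IBR_YM155 (2), BTZ_S63845 (1) and IBR_S63845 (1). Dose, time and passage, the meaning of IBR, BTZ and CLF, and that of the endings of MINO-P and MINO-VR are not in the labels used here. Of the 37 combinations of line and treatment, 22 have a single library, 11 have 2 and 4 have 3. In MINO-P and MINO-VR the CON, CLF, BTZ and BTZ_CLF libraries (8 in all) have names that start with HK and the rest have MCL names, so IBR, YM155 and S63845 cross name series against CON in these 2 cultures and not in JEKO-1 or Z138. No label says that libraries of a group came from separate cultures, so p-values measure only the spread between these libraries.

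Depth, read back from the steps between low values, ranged from 5.503 to 21.5 M reads with a median of 15.9 M. Values are in CPM, read counts scaled to 1 M per library, and 3 reads corresponded to 0.139 to 0.545 CPM as deposited. Mitochondrial transcripts held 1.91% to 80.5% of a library (median 6.69%), and the 6 libraries above 50% were JEKO-1 libraries of BTZ, BTZ_CLF and IBR_CLF. These values share a fixed total, so each value below was recomputed without the Chromosome M entries unless it is called "as deposited". The same reads then give a higher CPM, most of all in those 6 libraries. In JEKO-1 BTZ replicate 1, 3 reads of BCL2A1 came to 1.29 CPM. The labelled cell type held up against its markers: the 6 B-cell genes summed to 361 to 3347 CPM, and cyclin D1 (CCND1), the hallmark of mantle cell lymphoma, was at 207.43 CPM or more in every library. CD5, also typical of the disease, was below 1 CPM in all 13 Z138 libraries. The 8 genes of T cells, monocytes, stroma and epithelium summed to 1.40 to 78.1 CPM, most of it COL1A1 and EPCAM. In bulk RNA, fewer cells of a kind and less RNA per cell cannot be told apart.

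The 2 members on which the treatment results turn, BCL2L1 and BCL2A1, are shown with bases upstream of their start sites: BCL2L1 was the member called under BTZ, and BCL2A1 came next, at an adjusted p of 0.057. The sequences are RefSeq promoter windows of GRCh38.p14, on the minus strand, read 5′ to 3′. BCL2L1 (20:31664452-31723990, minus strand) is shown at chr20:31723991-31724213. That stretch stops at the gene's edge in the deposited table, and its RefSeq window runs on to the start site at chr20:31723964. A second BCL2L1 window, at chr20:31722869-31723118, is not shown. BCL2A1 (15:79960892-79971197, minus strand) is shown at chr15:79971241-79971270, where capitals mark TGATGCAA, an ATF4-type letter pattern that starts 63 bases before the start site. The bases between this stretch and the start site are not shown.

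BCL2L1: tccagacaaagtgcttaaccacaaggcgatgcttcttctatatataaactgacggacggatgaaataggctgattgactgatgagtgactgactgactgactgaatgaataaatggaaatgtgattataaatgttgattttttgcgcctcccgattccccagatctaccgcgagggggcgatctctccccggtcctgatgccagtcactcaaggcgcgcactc
BCL2A1: atattataaagTGATGCAAacagaaattcc

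A promoter window was at hand for 3 of the 5 members: BCL2, BCL2L1 and BCL2A1. The 4 patterns below, picked after the sequences had been seen, were searched on both strands of the 250 bases before each start site. TGATGCAA was found in BCL2A1 and in 0.772% of 35116 windows. The STAT-type pattern TTCNNNGAA was found in BCL2A1, 168 bases before its start site, and in 6.57% of windows. GAANNTTC, a heat-shock-type pattern, and the NF-kB consensus were in none of the 3 members' windows and in 5.78% and 9.96% of all windows. A match describes letters and is not a measured binding site.

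Compared per kilobase of transcript, the 5 members fell into an upper group of MCL1, BCL2 and BCL2L1 and a lower group of BCL2L2 and BCL2A1. With the length of all merged exons, MCL1 had the highest level of the 5 in 51 of 56 libraries, BCL2 in 3 and BCL2L1 in 2. With the length of the longest principal transcript, which shortens BCL2 from 11.741 to 7.461 kb, MCL1 led in 37 libraries and BCL2 in 17. The order of these 2 genes in the MINO cultures therefore depends on the length used: BCL2 led in 9 of 15 MINO-P and 8 of 13 MINO-VR libraries by the shorter length, and in 2 and 1 by the longer. In Z138, MCL1 led in 13 of 13 libraries and in JEKO-1 in 14 of 15 by either length. On the shorter length the median level of MCL1 was 71.8 CPM per kb in MINO-P, 75.7 in MINO-VR, 109.4 in JEKO-1 and 91.98 in Z138. The matching medians of BCL2 were 83.2, 79.3, 45.8 and 28.7 CPM per kb. BCL2A1 was the lowest of the 5 in 43 libraries and BCL2L2 in the other 13.

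**Figure D1:**
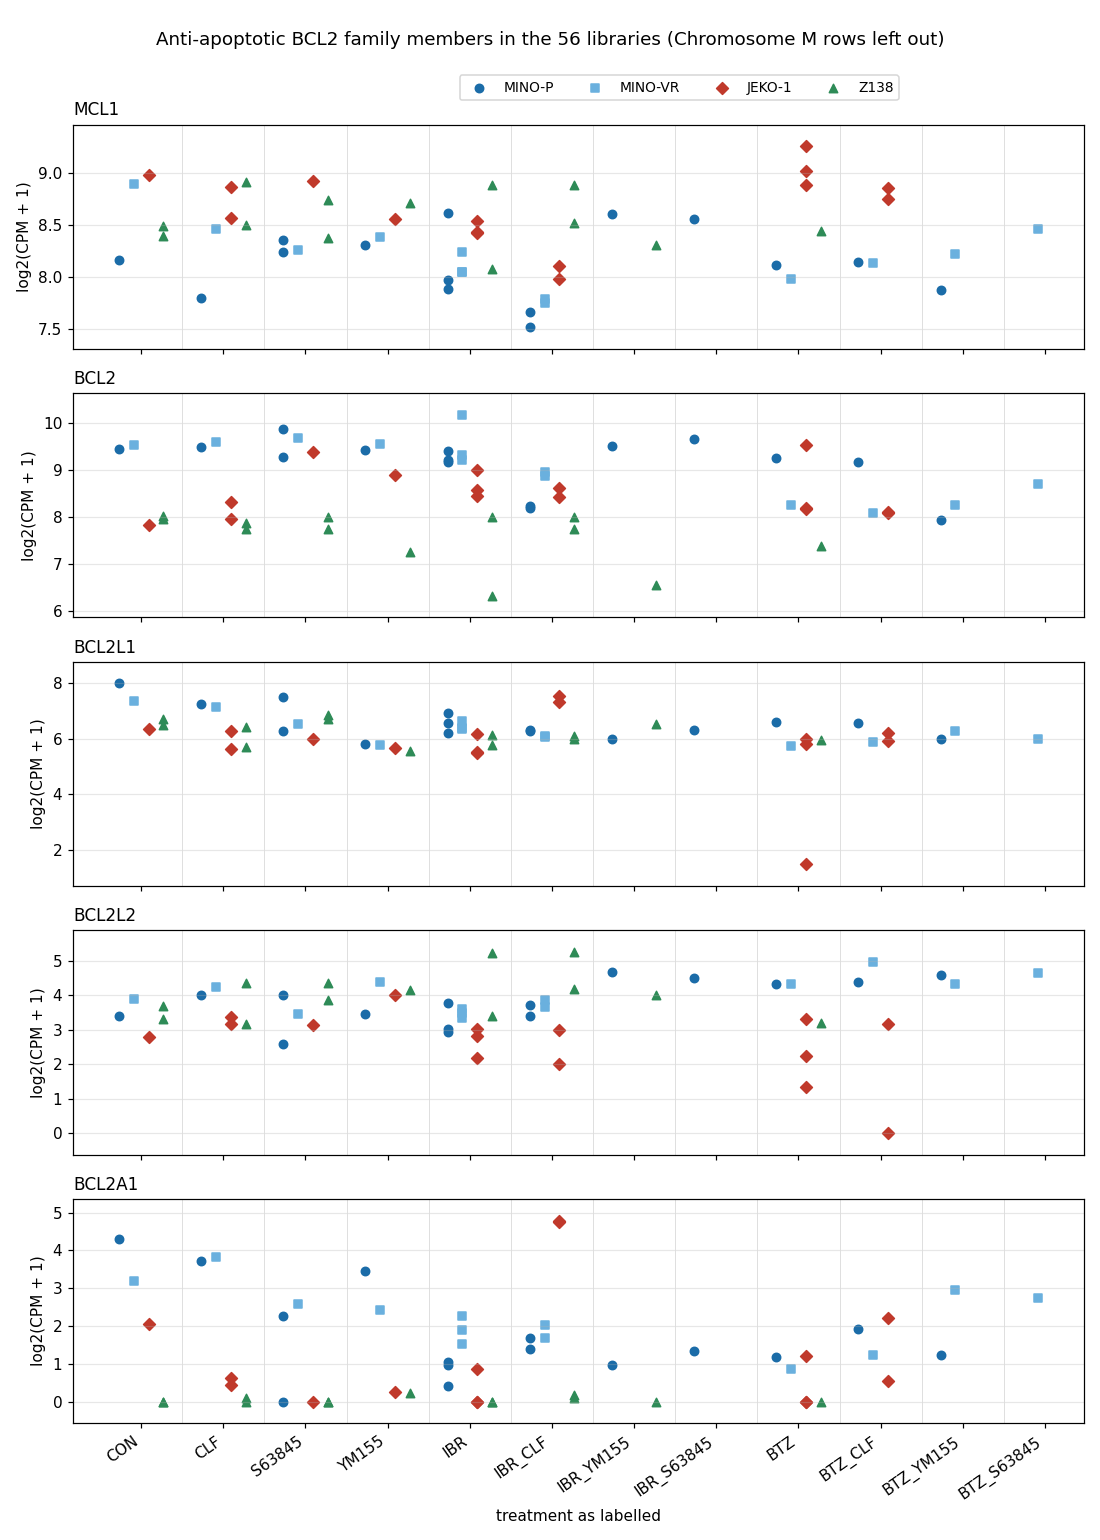
Level of each member, as log2(CPM + 1) with Chromosome M entries left out (y axis, a different range in each panel), in the 56 libraries by treatment (x axis) and cell line (colour and marker), 1 point for each library. BCL2L1 lies at 1.771 CPM in 1 JEKO-1 BTZ library, BCL2A1 is near 0 in every Z138 library, and BCL2 is higher in all MINO-VR and 14 of 15 MINO-P libraries than in any Z138 library.

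MCL1 (1:150560895-150579739, minus strand) encodes a short-lived guardian that binds NOXA and BIM and is the target of S63845. It was the steadiest member, with a lowest level of 182.22 CPM, a median of 339.16 and a highest of 610.8 over the 56 libraries, a spread of mean 347 ± 93.5 (SD, n = 56). Its lowest values were the 2 MINO-P IBR_CLF libraries (182.22 and 201.83 CPM), and its highest was JEKO-1 BTZ replicate 3. The untreated libraries stood at 285.5 CPM in MINO-P, 474.4 in MINO-VR, 503.7 in JEKO-1 and 358.0 and 336.4 in Z138. Under S63845 they stood at 326.9 and 302.2 in MINO-P, 305.2 in MINO-VR, 484.3 in JEKO-1 and 331.2 and 427.4 in Z138. So the S63845 libraries were above untreated in MINO-P, below it in MINO-VR and JEKO-1, and on both sides in Z138. The MINO comparisons here cross name series. S63845 moved MCL1 RNA by −0.11 log2 units (95% interval −0.53 to 0.30, limma adjusted p = 1.0), and 0 of 17203 genes passed the test in that comparison (0% called, 428 genes at an unadjusted p under 0.05).

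BCL2 (18:63123346-63320129, minus strand) encodes the guardian first found at the lymphoma translocation and the target of venetoclax. It varied more than MCL1, from 79.42 CPM through a median of 364.58 to 1154.3. By line its level was 605 ± 194 CPM in MINO-P (SD, n = 15), 594 ± 254 in MINO-VR (n = 13), 386 ± 153 in JEKO-1 (n = 15) and 204 ± 62.7 in Z138 (n = 13). The highest Z138 library, at 260.77 CPM, lay below 14 of the 15 MINO-P libraries and all 13 MINO-VR libraries. The 2 MINO cultures did not differ beyond their spread.

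BCL2L1 (BCL-XL) encodes a guardian with a wide tissue range that binds BH3-only proteins and both effectors. Its level ran from 1.771 CPM through a median of 74.69 to 253.84, and the 2 ends of that range were an untreated MINO-P library and a BTZ-treated JEKO-1 library. BCL2L2 (BCL-W; 14:23298790-23311752, plus strand) ran from 0 through 11.43 to 37.33 CPM. It overlaps the read-through gene BCL2L2-PABPN1 (14:23306833-23326176), so its counts are uncertain, since reads in the shared exons could be split between the 2 entries. BCL2A1 (BFL-1), a guardian known as an NF-kB target in B cells, ran from 0 through 1.01 to 26.64 CPM, and was above 1 CPM in 28 of 56 libraries.

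The cell lines were compared first. A gene was called when its limma p-value, adjusted by Benjamini and Hochberg over 17203 genes, was under 0.05. MINO-VR against MINO-P gave calls for 7.33% of all genes (4.21% higher, 3.12% lower) and for 0 of the 5 members (0 at an unadjusted p under 0.05 as well). The 5 differences lay between −0.24 (BCL2L1) and 0.37 (BCL2A1) log2 units. The widest interval, that of BCL2A1, ran from −0.42 to 1.16.

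BCL2 was lower in Z138 than in either other background. Against MINO-P it was lower by −1.65 ± 0.22 log2 units (SE, adjusted p = 3.8e-08), where 39.3% of all genes were called, 21.2% higher and 18.2% lower. Against JEKO-1 it was lower by −1.03 ± 0.20 (adjusted p = 3.4e-05), where 54.5% of all genes were called. As deposited this last difference was −0.50 with an adjusted p of 0.081, so the call rests on leaving the mitochondrial entries out. JEKO-1 lay between, lower than MINO-P by −0.63 ± 0.23 (adjusted p = 0.027, 39.1% of genes called). That call was lost without Z138 IBR_YM155 replicate 1 (adjusted p = 0.056) and without MINO-P IBR_YM155 replicate 1.

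MCL1 was higher in JEKO-1 than in MINO-P by 0.51 ± 0.14 log2 units (adjusted p = 0.0037) and in Z138 by 0.39 ± 0.14 (adjusted p = 0.020). Both calls were lost on the deposited scale, where the differences were 0.11 (adjusted p = 0.75) and 0.52 (adjusted p = 0.060). The Z138 call was also lost without Z138 IBR_CLF replicate 2 (adjusted p = 0.067) and without Z138 IBR replicate 2 (adjusted p = 0.057), both libraries with the name ending A described below for BCL2L2, and with the libraries that differ by a final lower-case a averaged (0.36, adjusted p = 0.075). Against one another, Z138 and JEKO-1 differed in MCL1 by −0.12 (interval −0.37 to 0.14).

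BCL2A1 was nearly absent from Z138. All 13 Z138 libraries stood at 0.162 CPM or less, with at most 2 reads, and 9 of them held 0 reads, which allows up to the floor of 3 reads. MINO-P ranged from 0 through 1.53 to 18.6 CPM and MINO-VR from 0.830 through 3.83 to 13.2, and JEKO-1 from 0 through 0.470 to 26.6. The fitted difference of Z138 from MINO-P was −1.45 ± 0.43 log2 units (adjusted p = 0.0062) and from JEKO-1 −1.41 ± 0.39 (adjusted p = 0.0024). Z138 libraries are nearly all at 0, so these sizes depend on the 1 CPM added before the logarithm. The JEKO-1 difference fell to −0.46 (adjusted p = 0.20) once the 6 libraries with over 50% mitochondrial RNA were left out, of which the 2 IBR_CLF libraries hold the highest BCL2A1 values of the series.

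BCL2L2 was higher in Z138 than in JEKO-1 by 1.23 ± 0.28 log2 units (adjusted p = 0.0002). Against MINO-P the difference of 0.71 missed the threshold (adjusted p = 0.057) and passed it as deposited (0.79, adjusted p = 0.037). In Z138 the value moved with the library name: 5 groups hold 1 library whose name ends in A and 1 without it, and BCL2L2 was higher in the A library in 5 of 5 pairs, by 1.35-fold to 3.81-fold (median 2.17-fold). BCL2L1 was higher in the A library in 5 of 5 pairs too (up to 1.66-fold) and MCL1 in 4 of 5 (up to 1.76-fold). The widest pair of BCL2L2 was IBR, at 36.2 against 9.51 CPM. In the other lines the suffixed library was higher in 6 of 8 pairs, with a median ratio of 1.12. What the letter stands for is not in the labels, and its part in these line differences was not tested.

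BCL2L1 did not pass in any of the 4 line comparisons with mitochondrial entries left out. As deposited it was lower in JEKO-1 than in MINO-P by −0.71 (adjusted p = 0.033) and higher in Z138 than in JEKO-1 by 0.65 (adjusted p = 0.017). The scale of the data shifts all genes together here: the median of all genes in Z138 against JEKO-1 was −0.05 with mitochondrial entries left out and 0.31 as deposited, and in JEKO-1 against MINO-P 0.06 and −0.18. As deposited, 12% of genes were called higher and 25.3% lower in JEKO-1 against MINO-P, where without mitochondrial entries 22.8% were higher and 16.3% lower. For Z138 against JEKO-1 the 2 splits were 40.4% higher with 17.1% lower and 25.7% higher with 28.8% lower.

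**Figure D2:**
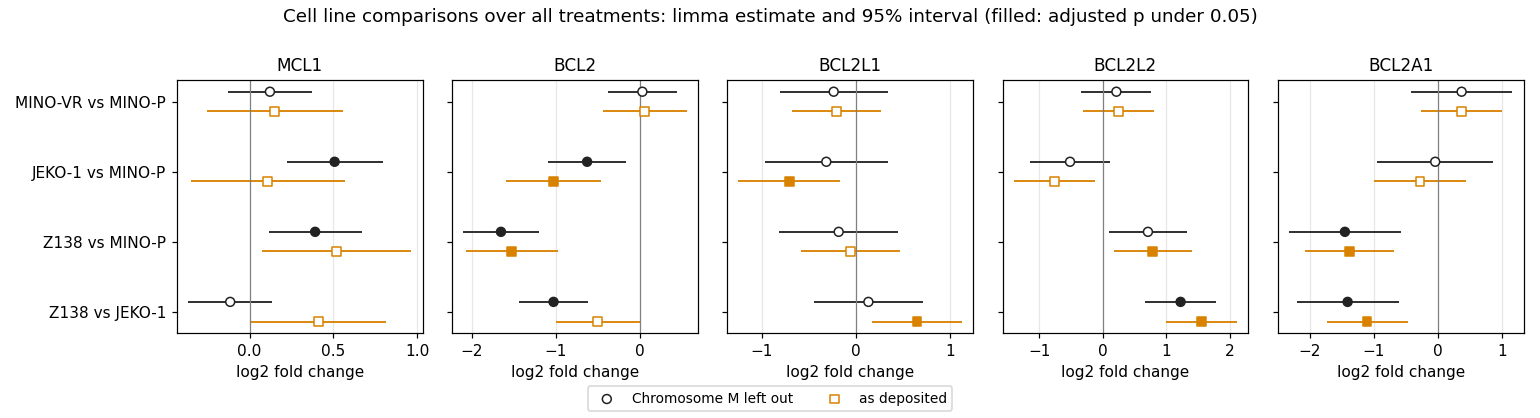
Difference of each member between cell lines (x axis, log2 fold change from limma with its 95% interval, a different range in each panel) for 4 comparisons (y axis), with Chromosome M entries left out (black circles) and as deposited (orange squares). Filled symbols have an adjusted p under 0.05; BCL2 is lower in Z138 than in MINO-P on both scales, at −1.65 and −1.52.

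BCL2L1 fell under BTZ. Untreated libraries stood at 253.8 CPM in MINO-P, 163.9 in MINO-VR, 80.1 in JEKO-1 and 88.7 and 103.1 in Z138. The BTZ libraries stood at 94.98 CPM in MINO-P, 52.8 in MINO-VR, 54.4, 62.4 and 1.77 in JEKO-1 and 60.2 in Z138. Every BTZ library was below the untreated libraries of its line. In MINO-P and MINO-VR 1 library was set against 1, so overlap could not occur. The share of all genes that separate this way was not counted. The order was not particular to BTZ. IBR, CLF and YM155 libraries also lay below the untreated libraries of their line in all 4 lines. S63845 libraries did too, except in Z138, where they lay above. Of these, IBR, YM155 and S63845 cross name series against CON in the MINO cultures. The comparison of BTZ with CON called 18.6% of 17203 genes, 4.87% higher and 13.8% lower. Its fitted change of BCL2L1 was −1.62 ± 0.44 log2 units, a 3.08-fold fall (limma adjusted p = 0.0068). As deposited it was −1.98 (adjusted p = 7.8e-05), with 24% of genes called, 1.75% higher and 22.3% lower, and the median of all genes was −0.42 where it was −0.17 without mitochondrial entries.

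JEKO-1 BTZ replicate 3 weighed most in that value. Without it the fall was −0.98 log2 units (adjusted p = 0.0087). Its 1.77 CPM rest on 24 reads, against 127 and 112 reads in the other JEKO-1 BTZ libraries. The library stood apart in other ways: mitochondrial RNA was 9.92% against 67.6% and 67.5%, the heat-shock gene HSPA6 was at 87.2 CPM against 5385 and 5424 (4.85 untreated, and 75.6 to 1115 with BTZ in the other lines), and its correlation with replicates 1 and 2 across genes was 0.801 and 0.803 where theirs with each other was 0.962. Whether it received the labelled treatment in the same way was not tested. It also had the highest BCL2 of the 3 (745 CPM against 288.4 and 294.1) and the highest MCL1 (610.8 against 472.8 and 516.3). BCL2L1 was called in all 56 fits that left out 1 library and in all 15 other settings, with adjusted p-values up to 0.044.

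The fall of BCL2L1 was not called within any single line, where most groups hold 1 library. The differences were −1.41 log2 units in MINO-P, −1.62 in MINO-VR, −2.66 in JEKO-1 and −0.66 in Z138, with adjusted p-values of 0.99, 1.0, 0.22 and 0.90 from the within-line limma fit. In that fit a lone library is assumed to vary like the groups with 2, and 0.119%, 0.125%, 0.621% and 1.74% of genes were called in the 4 lines. Of these, 0.0119% were higher and 0.107% lower in MINO-P, 0.0418% and 0.0836% in MINO-VR, 0.215% and 0.406% in JEKO-1, and 0.436% and 1.31% in Z138. The JEKO-1 difference was −0.45 (adjusted p = 0.78) without replicate 3. As deposited it was −3.47 and called (adjusted p = 0.010), where 0.357% of genes were called higher and 18.9% lower. A test of whether the BTZ response of BCL2L1 differs between lines did not pass (F = 0.557, limma adjusted p = 1, 0.0477% of genes called). It passed when libraries over 50% mitochondrial were left out (adjusted p = 0.0047), a setting in which replicate 3 is the lone JEKO-1 BTZ library.

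BCL2A1 ran the same way where it was expressed. It stood at 18.6 CPM untreated and 1.252 with BTZ in MINO-P, at 8.10 and 0.830 in MINO-VR, and at 3.14 untreated against 1.29, 0 and 0 with BTZ in JEKO-1. In Z138 untreated and BTZ libraries alike were listed at 0. In reads, MINO-P held 291 and 20, MINO-VR 166 and 14, and JEKO-1 58 against 3, 0 and 0. The fitted change of −1.60 ± 0.61 log2 units missed the threshold (adjusted p = 0.057), and it passed as deposited (−1.62, adjusted p = 0.011). It passed also with 7 single libraries left out, among them Z138 BTZ replicate 1 (−1.89, adjusted p = 0.031) and JEKO-1 BTZ replicate 1 (−1.77, adjusted p = 0.043).

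**Figure D3:**
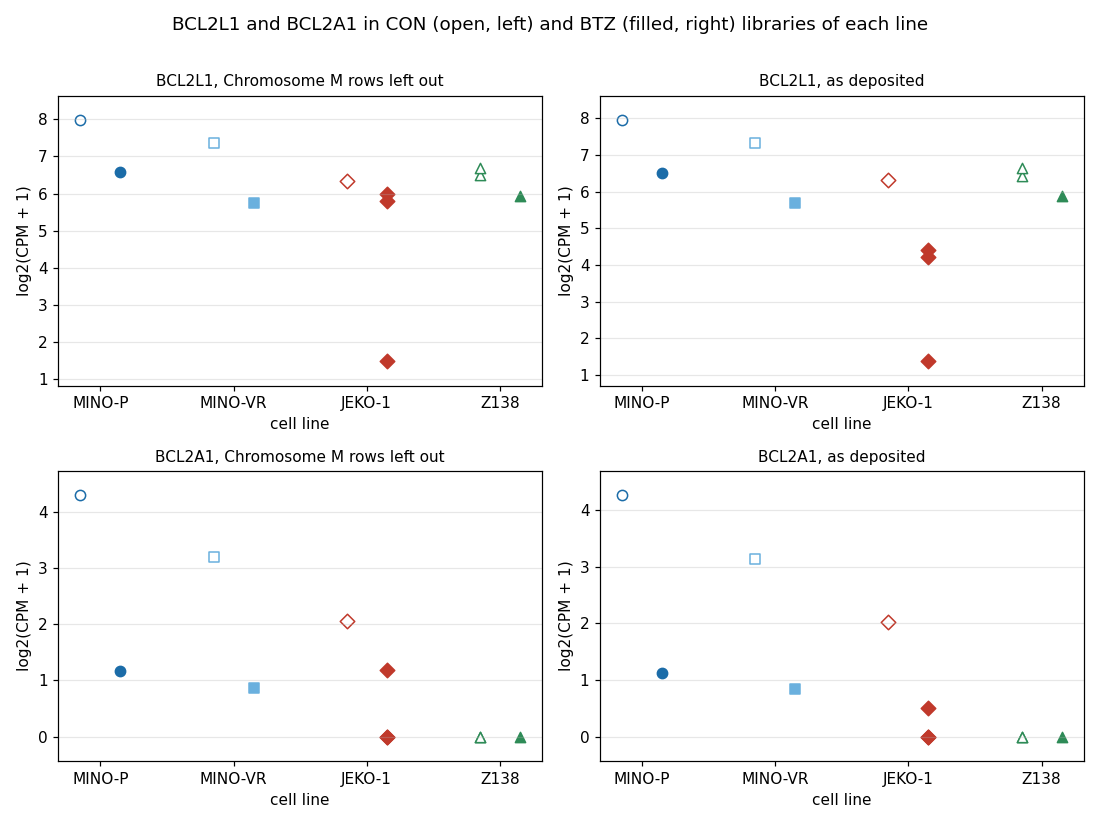
BCL2L1 (top) and BCL2A1 (bottom) as log2(CPM + 1) (y axis) in the untreated (open, left) and BTZ (filled, right) libraries of each cell line (x axis), with Chromosome M entries left out (left panels) and as deposited (right panels), 1 point for each library. The BTZ points of BCL2L1 lie below the untreated points of their line in all 4 lines; the lowest is JEKO-1 replicate 3 at 1.771 CPM, and 2 BCL2A1 points of JEKO-1 BTZ and 2 of untreated Z138 coincide at 0.

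The 3 other members did not pass under BTZ. MCL1 changed by −0.03 log2 units (interval −0.42 to 0.35), BCL2 by −0.29 (−0.91 to 0.34) and BCL2L2 by 0.11 (−0.74 to 0.96). BCL2 was lower with BTZ in MINO-VR (306.0 against 735.0 CPM), MINO-P (612.5 against 702.0) and Z138 (165.2 against 249.0 and 260.8), and higher in JEKO-1 (288.4, 294.1 and 745 against 226.4). A test of the difference between lines did not pass for BCL2 (F = 2.04, adjusted p = 1.0 from limma). The lone untreated JEKO-1 library, at 226.4 CPM, had the lowest BCL2 of the 15 JEKO-1 libraries, so the higher level there was not particular to BTZ. BCL2 in JEKO-1 was 671.8 CPM with S63845, 474.7 with YM155, and at means of 413.0 with IBR and 282.3 with CLF. In MINO-VR the 4 libraries that received BTZ in any combination stood at 306.0, 269.7, 305.4 and 417.4 CPM of BCL2, and the 9 others at 471.57 or more. This split is described here after the values were seen, and 2 of the 4 have HK names. MINO-P did not show it. There BTZ and BTZ_CLF stood at 612.5 and 573.4 CPM and BTZ_YM155 at 243.3. The MINO-P IBR_CLF libraries, without BTZ, stood at 293.48 and 298.51.

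The genes around the family were read from lists of the pathway. Of 13 genes of NF-kB and its targets, 4 fell under BTZ and 0 rose, where 13.8% of all genes fell and 4.87% rose, with a median of −0.89 against −0.17 for all genes. They were NFKBIE (−1.76 ± 0.35), TNFAIP3 (−1.47 ± 0.40), RELB (−1.37 ± 0.46) and NFKBIA (−1.13 ± 0.32), which are feedback inhibitors and a subunit of the pathway. Among 7 tested BH3-only genes, HRK rose by 1.82 ± 0.54 (adjusted p = 0.013), PMAIP1, which encodes the MCL1-binding NOXA, by 0.90 ± 0.31 (adjusted p = 0.034), and BIK fell by −1.63 ± 0.41 (adjusted p = 0.0037). The PMAIP1 call was lost as deposited (0.52, adjusted p = 0.22), as were those of BCL2L13 and MARCHF5 below, all with the same sign. BCL2L11 (BIM) failed the filter, with a highest level of 1.37 CPM, as did the effector BOK at 1.33 CPM.

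The 2 tested effectors, BAX (−0.36) and BAK1 (−0.67), did not pass under BTZ. In the other lists, the BCL2 relative BCL2L12 fell (−2.004 ± 0.43) and BCL2L13 rose (1.21 ± 0.30), and the stress gene ATF3 rose (2.38 ± 0.77) while CHAC1 fell (−1.80 ± 0.63). Of 8 genes tied to MCL1 protein turnover, 1 rose, the ubiquitin ligase MARCHF5 (0.63 ± 0.19). The rule for naming list genes took only ATF3, BCL2L12, HRK and CHAC1, and the others were named after their values were seen.

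IBR against CON called 10.8% of all genes (4.37% higher, 6.39% lower) and 0 of the 5 members (0 at an unadjusted p under 0.05). BCL2A1 stood at 0.333 to 1.07 CPM in the 3 MINO-P IBR libraries, at 1.86 to 3.83 in MINO-VR, at 0, 0.807 and 0 in JEKO-1, and at 0 in both Z138 libraries, each below the untreated level of its line except in Z138, where both are at 0. In the MINO cultures this sets MCL names against HK names. Its fitted change was −0.95 log2 units (interval −2.15 to 0.24, adjusted p = 0.34), and −1.49 (adjusted p = 0.055) with no term for the name series. MCL1 changed by −0.32 (interval −0.70 to 0.06, adjusted p = 0.31) and passed when Z138 was left out (−0.67, adjusted p = 0.045), 1 of the 15 other settings. BCL2L1 changed by −0.43, BCL2 by −0.07 and BCL2L2 by 0.59, in the fit with the name series term. Plain differences of BCL2L1 were −1.43 in MINO-P, −0.91 in MINO-VR, −0.62 in JEKO-1 and −0.63 in Z138. Those of BCL2L2 were −0.16, −0.41, −0.12 and 0.80, so only Z138 was higher. Its 2 IBR libraries stood at 36.2 and 9.51 CPM of BCL2L2. All comparisons with CON share the same 5 untreated libraries.

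Genes of the lists that moved under IBR were TRIB3, a stress-response gene (2.09 ± 0.62), TNFAIP3 (−1.44 ± 0.39), BIK (−1.41 ± 0.40) and NFKB1 (−1.16 ± 0.34). Against 4.37% of all genes higher and 6.39% lower, 3 of 13 NF-kB genes fell and 0 rose (list median −0.85 against 0.00 for all genes), 2 of 5 stress genes rose (list median 1.70), and 1 of 7 BH3-only genes fell. Of 8 MCL1 turnover genes, MARCHF5 rose and the deubiquitinase USP13 fell, and of 6 caspase-activation genes CYCS, which encodes cytochrome c, fell. The calls of MARCHF5, USP13 and CYCS were lost as deposited, with the same sign.

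IBR could also be set against S63845 without the untreated libraries, within 1 series of library names and in all 4 lines. There 19.8% of 15700 genes were called (6.68% higher, 13.1% lower) and 0 of the 5 members, though BCL2 (−0.47 ± 0.21, adjusted p = 0.12) and BCL2L1 (−0.41 ± 0.19, adjusted p = 0.13) had an unadjusted p under 0.05. BCL2L1 stood at 73.3, 94.0 and 119.9 CPM with IBR and 76.5 and 180.3 with S63845 in MINO-P, and at 82.4, 81.1 and 98.4 against 91.2 in MINO-VR. In JEKO-1 it stood at 43.6, 44.4 and 71.1 against 61.9, and in Z138 at 54.3 and 69.9 against 104.9 and 115.0. The groups overlapped in the first 3 lines and not in Z138. Of 13 NF-kB genes, 10 were lower with IBR against 13.1% of all genes, led by the chemokine CCL3 (−2.67 ± 0.56), the apoptosis inhibitor BIRC3 (−2.65 ± 0.57), CCL4 (−2.34 ± 0.65) and the adaptor TRAF1 (−1.79 ± 0.49), with a list median of −0.96 against −0.07. BCL2A1 itself differed by −0.16 (interval −0.86 to 0.54). Of 5 stress genes, 3 were higher with IBR, against 6.68% of all genes, with a list median of 1.28. Of 7 BH3-only genes 1 was higher and 1 lower. Of 8 MCL1 turnover genes 1 was lower, as was 1 of 6 caspase-activation genes.

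BCL2L1 was low with YM155, whose 4 libraries lay at 55.7 CPM in MINO-P, 54.2 in MINO-VR, 49.4 in JEKO-1 and 46.5 in Z138. All 4 were below the untreated and the S63845 libraries of their line, though the MINO untreated libraries are of the other name series. The difference was −0.92 ± 0.51 log2 units against CON (adjusted p = 0.42, 1.15% of genes called, 0.738% higher and 0.407% lower) and −0.89 ± 0.23 against S63845 (adjusted p = 0.12). The second comparison called 0% of genes, with 2113 at an unadjusted p under 0.05, and BCL2L1 had the lowest p of the 5. It passed without MINO-P S63845 replicate 1 (−1.03, adjusted p = 0.035). BCL2L2 was higher with YM155 than untreated by 1.2005 ± 0.49 (adjusted p = 0.23), at 10.04 against 9.59 CPM in MINO-P, 19.9 against 13.8 in MINO-VR, 15.2 against 5.91 in JEKO-1 and 16.8 against 8.86 and 12.003 in Z138. With no term for the name series these changes against CON were −1.30 for BCL2L1 (adjusted p = 0.19) and 0.67 for BCL2L2 (adjusted p = 0.61). YM155 and S63845 differ in more than their labelled target, and dose and time were not given, so their values are set side by side only.

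CLF alone called 0% of genes (62 at an unadjusted p under 0.05) and 0 members, with differences of the 5 between −0.50 (BCL2L1) and 0.51 (BCL2L2). Added to BTZ it called 0.0698% of genes (0.0639% higher, 0.00581% lower) and 0 members (0 at an unadjusted p under 0.05). Added to IBR it called 0% of genes (1679 at an unadjusted p under 0.05) and 0 members, and the highest values of BCL2A1 in the series appeared there. In JEKO-1, BCL2A1 stood at 25.7 and 26.6 CPM with IBR_CLF (56 and 70 reads) against 0, 0.807 and 0 with IBR (0, 5 and 0 reads). BCL2L1 in the same libraries stood at 185.5 and 158.3 against 43.6, 44.4 and 71.1. Both JEKO-1 IBR_CLF libraries lay above all IBR libraries of that line for both genes.

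In MINO-P the BCL2A1 values were 1.62 and 2.19 CPM with IBR_CLF against 0.333 to 1.07 with IBR, higher without overlap. In MINO-VR they were 2.23 and 3.09 against 1.86 to 3.83 and overlapped, and in Z138 they were 0.0713 and 0.135 against 0, on at most 2 reads. Over all lines BCL2A1 changed by 1.37 ± 0.46 (adjusted p = 0.29), and by 0.30 (adjusted p = 0.92) with JEKO-1 left out. The test of a difference between lines missed the threshold (F = 10.7, adjusted p = 0.14, 0.155% of genes called) and passed with no filter on low values (adjusted p = 0.048) and with each library as its own sample (adjusted p = 0.0014). The 2 JEKO-1 IBR_CLF libraries differ in name only by a final a and were averaged to 1 sample in the main test. The same holds for the IBR_CLF libraries of MINO-P and MINO-VR. In the JEKO-1 IBR_CLF libraries the mitochondrial share was 60.7% and 59.1%, against 13.5% to 20.9% with IBR, and its part in these values was not tested. As deposited, BCL2A1 there was 10.1 and 10.9 CPM, still above every IBR library.

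MCL1 was lower with IBR_CLF than with IBR in the MINO cultures and JEKO-1, without overlap. In each of these lines the IBR_CLF libraries are a pair whose names differ only by a final a. So are 2 of the 3 IBR libraries, and such pairs lie close together. The share of all genes that separate this way was not counted. The values were 182.22 and 201.83 against 235.2, 250.7 and 389.9 CPM in MINO-P, 214.3 and 219.4 against 263.6, 262.8 and 300.9 in MINO-VR, and 250.8 and 273.6 against 343.8, 342.0 and 371.2 in JEKO-1. In Z138 they were 365.9 and 472.2 against 268.4 and 472.7, and the groups overlapped. The fitted difference of −0.27 ± 0.15 did not pass (adjusted p = 0.55). BCL2 in MINO-P was 293.5 and 298.5 CPM with IBR_CLF against 576.0, 594.8 and 675.1 with IBR, and its fitted difference over all lines was −0.32 (adjusted p = 0.70).

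BTZ_YM155 could be compared with YM155 in the 2 MINO cultures. BCL2 stood at 243.3 against 687.5 CPM in MINO-P and at 305.4 against 755.1 in MINO-VR, both lower with BTZ added. The fitted difference was −1.27 ± 0.45 log2 units (interval −2.17 to −0.36, adjusted p = 0.22), where 0.552% of genes were called (0.343% higher, 0.209% lower). BCL2A1 went apart in the 2 cultures, at 1.34 against 10.01 CPM in MINO-P and 6.78 against 4.39 in MINO-VR. IBR_YM155, with 1 library in MINO-P and 1 in Z138, was set against IBR. That comparison called 0% of genes (910 at an unadjusted limma p under 0.05) and 0 members. The single libraries of IBR_S63845 (MINO-P) and BTZ_S63845 (MINO-VR) stood at 374.8 and 350.8 CPM for MCL1 and at 814.0 and 417.4 for BCL2, with no replicate check.

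**Figure D4:**
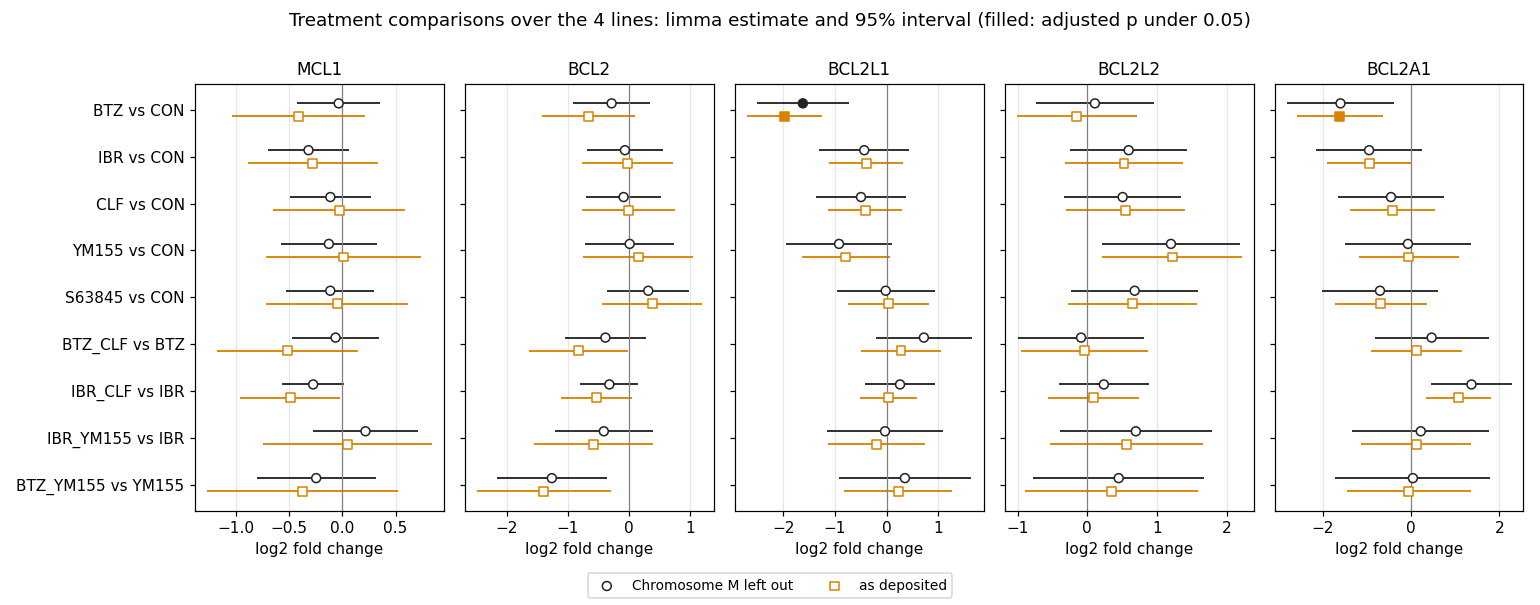
Change of each member (x axis, log2 fold change from limma with its 95% interval, a different range in each panel) in 9 treatment comparisons (y axis), with Chromosome M entries left out (black circles) and as deposited (orange squares). The fit held all 4 lines. BTZ_CLF had no Z138 library, IBR_YM155 was in MINO-P and Z138 only, and BTZ_YM155 in the MINO cultures only. Filled symbols have an adjusted p under 0.05: BCL2L1 under BTZ on both scales, and BCL2A1 under BTZ as deposited.

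Over the 37 group means, after each line's mean was taken off, the genes most like each member were named as a description only. They were RUNX1 (Pearson r = 0.746), UBP1 (0.721) and FRYL (0.717) for MCL1, and AUTS2 (0.833), CHD7 (0.812) and GAB1 (0.808) for BCL2. For BCL2L1 they were UQCRFS1P1 (0.783), EIF2D (0.751) and ALKBH2 (0.751), for BCL2L2 RNF115 (0.733), NBPF15 (0.731) and RALGAPA1 (0.723), and for BCL2A1 RFTN1 (0.752), GNG2 (0.751) and SGPP2 (0.716). These were the highest of 9783 genes with a mean of at least 10 CPM, and the points share libraries and treatments. Among the members themselves, BCL2L1 and BCL2A1 ran most closely together (r = 0.654), followed by MCL1 and BCL2 (0.406), and the other 8 pairs lay between −0.26 and 0.25.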

How the data were processed

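The deposited values are log2(CPM + 1), with 1 column for each of the 56 libraries, and the CPM of each library sum to 1 M. Partek and the hg38 build are named, per the submitters' processing notes. The aligner and counter settings are not given in the sources used here. Between 77.1% and 89.6% of low values came out as whole reads, so no count model was fitted, although the design had foreseen one for a table of counts. From the deposited log2 values, CPM was recovered, the 15 Chromosome M entries were left out, each library was rescaled to 1 M and log2(CPM + 1) was taken again. An entry without a gene name (at most 0.000773% of a library) was dropped.

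Linear models were fitted with limma 3.58.1 (R 4.3.3, variance trend on), keeping genes that reached 1 CPM in 2 libraries, and p-values were adjusted by Benjamini-Hochberg over all genes kept. The main model held treatment, cell line and the series of the library name (HK, 8 libraries, or MCL, 48). IBR, YM155 and S63845 were also compared in the MCL series alone. Within-line fits gave each of the 37 groups a mean, after libraries whose names differ by a final lower-case a were averaged; the other fits count those libraries separately, with averaging as an alternative. Replicate numbers only name libraries. Fold changes on this scale understate those of low genes. Floors and depths cover counting error only.

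Named genes were the 5 members, up to 4 called list genes of largest change in a comparison, and the 3 genes most correlated with each member. The members and lists were chosen with earlier results of these data known. Only the main model was tested on simulated data, for BTZ against CON and with errors independent between libraries. Close name pairs, responses that differ between lines and the within-line fits were not covered by that test. For BTZ against CON, 1 of the gene lists is not reported here.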

Additional observations from a re-analysis of the deposited data

Results flagged for a closer look

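The 5 members were searched for a library far from the others of its treatment, in 35 sets of 4 to 10 libraries, and 2 were found, where chance alone gives about 1 in 20 sets. BCL2L1 under BTZ was at 1.771 CPM in JEKO-1 replicate 3, and the nearest of the 6 libraries was at 52.816 CPM. BCL2 under BTZ_CLF was at 573.4 CPM in MINO-P replicate 1, and the nearest of the 4 libraries was at 275.86 CPM. Each set spans several cell lines.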

How the results depend on the processing

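No called member changed sign under any alternative run, and 209 uncalled values did. Counts of members called moved as follows. For BTZ against CON, 1 member was called, and 2 (BCL2A1 added) as deposited, with the filter in at least 0.5 of the libraries, with array weights, without libraries over 50% mitochondrial, without the 5 libraries with the fewest whole reads (chosen after seeing the data) and without JEKO-1. Leaving out 1 library gave 1 to 2. Array weights took YM155 against CON from 0 to 2, BTZ_YM155 against YM155 from 0 to 1, IBR against S63845 from 0 to 2 and MINO-VR against MINO-P from 0 to 1 (MCL1, 0.22, adjusted p = 0.049). Leaving out a line took YM155 against CON to 1 (without JEKO-1) and IBR against CON to 1 (without Z138). Leaving out 1 library gave 0 to 1 for IBR against S63845 and for YM155 against S63845, 1 to 2 for JEKO-1 against MINO-P and 2 to 4 for Z138 against MINO-P, where 3 were called. JEKO-1 against MINO-P rose from 2 to 4 without libraries over 50% mitochondrial. Within lines, where 0 were called, the 5 libraries left out gave 1 for BTZ in MINO-P, 1 for BTZ in MINO-VR and 1 for BTZ_YM155 in MINO-P, and leaving out 1 library gave 0 to 1 for BTZ in MINO-P. BTZ in JEKO-1 gave 2 as deposited and 2 without libraries over 50% mitochondrial. For differences between lines, BTZ went from 0 to 1 without libraries over 50% mitochondrial, and IBR_CLF against IBR from 0 to 1 with no filter, with each library as its own sample, without the 5 libraries, and in 0 to 1 when 1 library was left out. The cause of these moves was not tested. The labels carry no replicate numbers. A fit with the library-name suffix as a replicate block called 1 member for BTZ against CON, 2 for JEKO-1 against MINO-P, 3 for each of Z138 against MINO-P and against JEKO-1 and 0 in the other comparisons it could be run for, the same counts as without it. In the shallowest library a value under 0.545 CPM as deposited rests on fewer than 3 reads, which bears on BCL2A1. With mitochondrial entries left out, the CPM of 3 reads is higher.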
